A study of Mus musculus and Homo sapiens with 24 samples.

Results

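The mouse muscle cell line C2C12 at day 6 of differentiation was compared with the same line at day 0, across every gene of the deposited count table. The comparison was taken as the 4 libraries labelled day 6 against the 4 labelled day 0, 8 of the 24 libraries of a series that followed C2C12 and a human myogenic line through differentiation. All 8 libraries carry the labels C2C12, skeletal myoblast and genotype control. They give no agent or medium, no passage, and do not say whether the 4 libraries of a day came from separate dishes, so p-values rest on library-to-library spread alone, which could be technical. The 4 C2C12 libraries of day 1 entered the filter on low counts, the scaling and the statistical fit. They also entered the shares of even counts and the choice of genes for the check of replicate numbers. Their own levels are not reported. Poly(A)-selected RNA was sequenced after random-hexamer priming, and reads were counted per gene.

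C2C12 is an established line of mouse myoblasts, the dividing precursors of skeletal muscle. When such cells are allowed to differentiate, the transcription factor MyoD and its relative myogenin, together with MEF2 factors, switch on muscle genes, cells leave the division cycle, and they fuse into multinucleated myotubes that build sarcomeres. Cultures of this kind keep some unfused, mononucleated cells beside the myotubes. In bulk RNA a change in the number of cells of a kind and a change in the RNA made per cell cannot be told apart, which holds for every result here.

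The 8 libraries held 32795699 to 42389647 counts. Of 56748 genes in the table, 17065 had enough counts to be tested. A gene was called when edgeR's quasi-likelihood test gave an adjusted p (Benjamini-Hochberg) under 0.05, and fold changes are day 6 over day 0 on the log2 scale. At this threshold 11190 genes were called, 65.6% of those tested: 5650 higher at day 6 (33.1%) and 5540 lower (32.5%). At least 2-fold changes were called higher for 1678 genes (9.83%) and lower for 2311 (13.5%). Rises reached further than falls, with 297 genes called higher by at least 16-fold against 165 called lower, while at the 4-fold level 771 were higher and 927 lower. Of all genes called higher, 86 had no count at day 0, and of those called lower 26 had none at day 6. The fitted folds of these genes depend on the prior count, which limits the comparison at 16-fold. The lowest and highest libraries of the days did not overlap for 10067 genes (59.0%). The median of all tested genes was -0.03.

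**Figure D1:**
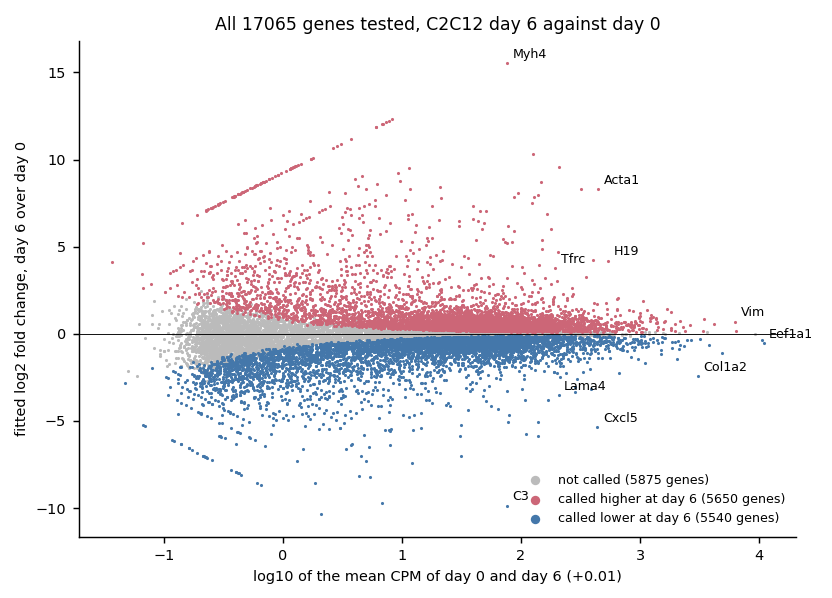
Fitted log2 fold change of day 6 over day 0 (vertical axis) against the log10 of the mean CPM of both days (horizontal axis), 1 point for each of 17065 tested genes. Red points are the 5650 genes called higher, blue points the 5540 called lower and grey points those not called. The straight rows of points at the upper and lower left are genes with no count on one of the days, whose fitted value depends on the prior count.

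The gene groups below come from lists that hold 970 genes of the table, of which 843 were tested. Counts of members called are to be read beside the shares over all tested genes, 33.1% higher and 32.5% lower. Means are given with the SD over 4 libraries of a day, levels are in CPM (counts scaled to a common library total), and a log2 fold change is given with its SE or, in brackets after a gene, alone. The labelled cell type was checked against its markers. All 9 genes of the skeletal muscle marker list were called higher at day 6, with a median log2 fold change of 5.36. At day 0 desmin (Des) was already at 234 ± 6.76 CPM and M-cadherin (Cdh15) at 13.4 ± 1.09 CPM, while the myoblast factor Myod1 stood at 2.90 ± 0.563 CPM. Of the 5 tested genes of the smooth muscle list none was called higher and all 5 were called lower, and the 3 tested adipocyte genes were all called lower. Of 5 tested fibroblast markers, 3 were called higher, Dcn (4.86), Pi16 (1.45) and Dpt (1.09), and 2 lower, Pdgfra (-1.87) and Col1a1 (-0.93), with a median of 1.09. Of 5 tested cardiac markers 2 were called higher, namely Nppb (4.27) and Myh6, which had no count at day 0 and a mean of 1.36 ± 0.364 CPM at day 6, and Nkx2-5 was called lower. The part of other cell types in the results was not tested. Of 6 endothelial and 6 macrophage markers, 2 and 3 had enough counts to be tested, and each of these had a mean under 3 CPM on both days.

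The largest rises were mostly of genes that build the contractile apparatus. Myh4, a fast adult myosin heavy chain, had no count in any day 0 library and 163, 137, 152 and 155 CPM in the day 6 libraries, at least 7283-fold higher when 3 counts over the day 0 libraries are taken as the floor. The same bound was at least 794-fold for Csrp3, a Z-disc LIM protein, at least 742-fold for Tceal7, at least 707-fold for Myh2, at least 660.1-fold for R3hdml, at least 647-fold for Abra, an actin-binding activator of SRF signalling, at least 583-fold for the myosin chaperone Unc45b and at least 582-fold for Smpx. These 8 genes had no count in any day 0 library and a mean of at least 10 CPM at day 6. The 7 other genes of the 15 largest rises were detected at day 0 at under 1 CPM: Myh1 (10.32), Myh3 (9.60), Cck (9.52), Myoz2 (9.22), Lmod2 (8.74), Myl4 (8.73) and Cav3 (8.62). Cck encodes the peptide hormone cholecystokinin and is the one secreted hormone among them. All day 0 counts of Lmod2 came from replicate 4 and all those of Cav3 from replicate 2. Without these libraries the fitted values were 12.52 and 11.89, which then depend on the prior count.

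In absolute terms, the genes that gained most CPM were of a different kind, and most of them were already abundant at day 0. Vimentin (Vim), an intermediate filament protein of mesenchymal cells, was at 5081, 4513, 4676 and 4941 CPM in the day 0 libraries and 7605, 8164, 7698 and 7747 CPM in the day 6 libraries. Galectin 1 (Lgals1) went from 2476 ± 263 to 4372 ± 429 CPM, and thymosin beta 4 (Tmsb4x), which binds actin monomers, from 451 ± 48.6 to 1672 ± 106 CPM. The glycolytic genes Pkm, Eno1, Ldha and Pgk1 were also among the 10 largest gains. H19, a noncoding RNA of an imprinted locus, was the one gene of these 10 that was low at day 0: it was at 58.4, 55.3, 53.8 and 53.7 CPM in the day 0 libraries and 990.4, 1065, 1029 and 981 CPM in the day 6 libraries, 18.4-fold higher. All 4 day 6 libraries lay above all 4 day 0 libraries for each of Vim, Lgals1, Tmsb4x and H19.

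The largest losses in CPM were of Col1a2, a chain of type I collagen, from 5161 ± 407 to 961 ± 23.1 CPM, and of Eef1a1, a translation elongation factor, from 12940 ± 574 to 8879 ± 386 CPM. Fibronectin (Fn1), Col5a2, Col6a1 and the collagen crosslinking enzyme Lox were also among the 10 largest losses, as were Eef2 and Rpsa of the translation machinery. The most abundant rows took a smaller share of the library at day 6: the 20 most abundant genes held 9.74 ± 0.154% of counts at day 0 and 8.59 ± 0.161% at day 6. All 4 libraries differed in that direction (two-sided exact permutation p = 0.0286, the smallest that 4 against 4 allows). The number of genes at 1 CPM or more was 13183 to 13316 in the day 0 libraries and 12962 to 13036 in the day 6 libraries (two-sided exact permutation p = 0.0286).

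**Figure D2:**
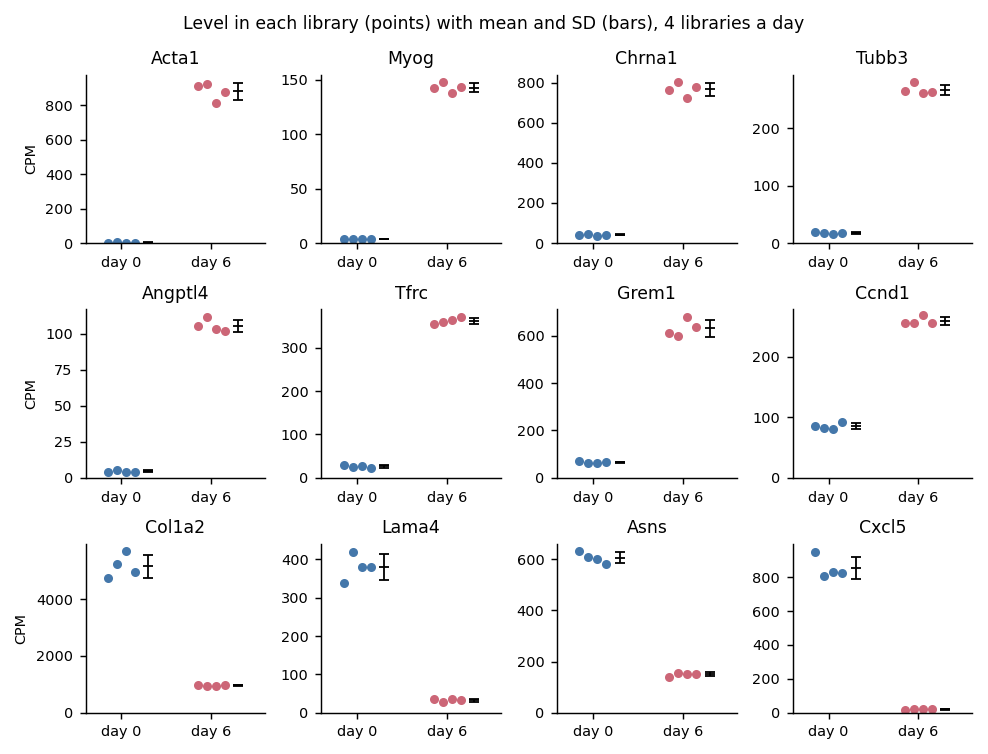
Level of 12 genes in each library in CPM (points; day 0 blue, day 6 red) with the mean and SD of 4 libraries (black bars); each panel has its own linear axis from 0. The first 8 genes were higher in every day 6 library than in any day 0 library, and Col1a2, Lama4, Asns and Cxcl5 were lower in every day 6 library.

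The regulators of muscle genes did not move together. Of 31 tested members, 10 were called higher and 13 lower, with a median log2 fold change of -0.03. Over all tested genes 33.1% were called higher and 32.5% lower, with the same median, so these counts do not set the list apart. Myogenin (Myog) was at 3.84, 3.59, 4.11 and 3.48 CPM in the day 0 libraries and 142, 148, 138 and 143 CPM in the day 6 libraries. Mef2c rose from 2.83 ± 0.495 to 63.6 ± 2.75 CPM and the muscle methyltransferase Smyd1 from 0.769 ± 0.369 to 34.8 ± 1.20 CPM, while Mef2a rose by 0.98 and Mef2d was not called (0.15), except without day 6 replicate 2 (0.19). Per kilobase of gene length, Mef2c made up 1.14 ± 0.263% of the summed level of these MEF2 genes at day 0 and 14.6 ± 0.490% at day 6. Among the factors of the MyoD family, Myod1 (2.75) and Myf5 (0.80) rose and Myf6, the factor of mature fibres, stayed under 1 CPM on both days. The TEAD factors, which recruit YAP and TAZ, split: Tead4 rose by 1.58, and Tead1 (-0.78), Tead2 (-0.71) and Tead3 (-0.98) fell. The cofactor Vgll2 rose by 3.38 and Vgll3 fell, by 0.43 on the log2 scale.

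A list of inhibitors of muscle differentiation also held related factors that are not all inhibitors, such as Hes6 (1.84). Of its 21 tested genes, 12 were called higher and 5 lower, with a median of 0.41, beside 33.1% higher and 32.5% lower over all tested genes. ID proteins bind the partners of MyoD and keep them from DNA. Id3 fell from 77.6 ± 3.98 to 13.4 ± 0.801 CPM, whereas Id1 (0.44) and Id2 (1.81) rose, so the family did not move as one. Musculin (Msc), a repressor related to MyoD, rose from 0.842 ± 0.352 to 10.7 ± 0.261 CPM. Twist2 and Snai2 were called lower (-0.72 and -1.64). The Notch pathway, in which a ligand on 1 cell activates a receptor on its neighbour and HES and HEY repressors are the targets, was also divided. Its target genes Hes1 (3.27), Hey1 (2.29) and Heyl (3.76) rose, as did the ligand Dll1 (1.58). The value for Heyl was 4.43 without day 0 replicate 2. The receptor Notch3, the ligand Jag1 and the DNA-binding partner Rbpj fell (-1.64, -1.40 and -1.18). Hes1 was at 4.27, 4.76, 5.55 and 4.06 CPM in the day 0 libraries and 43.2, 47.5, 45.1 and 43.9 CPM in the day 6 libraries, with no overlap between the days.

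Sarcomeric genes made up most of the steepest rises. The myosin heavy chains drive contraction, and their isoforms mark developmental stage and fibre type: Myh3 is embryonic, Myh8 perinatal, Myh1, Myh2 and Myh4 fast adult, and Myh7 slow. Per kilobase, Myh3 held 49.8 ± 0.824% of the summed myosin heavy chain level at day 6, Myh1 29.1 ± 0.475%, Myh4 18.5 ± 0.428% and Myh2 1.51 ± 0.114%. Myh7 held 0.424 ± 0.0628% and Myh8 0.150 ± 0.0351%. The embryonic form was thus the most abundant and the fast adult forms Myh1 and Myh4 followed, each apart from the next by more than the spread of the libraries. The summed level of the 9 genes rose from 1.72 ± 0.460 to 845 ± 62.6 CPM. These genes are close in sequence, and how reads that fit several of them were counted is not given in the sources used here.

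Other sarcomere subunits were a mixture of fast, slow and embryonic forms. Among the troponin T genes at day 6, per kilobase, the fast form Tnnt3 held 54.5 ± 1.29%, the cardiac and embryonic form Tnnt2 25.7 ± 1.20% and the slow form Tnnt1 19.9 ± 0.531%. The slow and fast troponin I genes were level, with Tnni1 at 50.3 ± 1.26% and Tnni2 at 49.5 ± 1.18%, which do not differ beyond their spread. Troponin C was one-sided: the slow form Tnnc1 rose by 5.99, and the fast form Tnnc2 had too few counts to be tested. Tnnc2 had 0 counts over the day 0 libraries and 7 over the day 6 libraries, and whether read counting lowered this row was not tested. Of the summed level of Myl1, Myl2, Myl4 and Mylpf, Mylpf held 75.1 ± 0.314%, Myl1 16.8 ± 0.42% and the embryonic form Myl4 7.98 ± 0.144%. These genes encode different kinds of myosin light chain, so these shares are not those of alternative forms. Per kilobase, Myl4 was at 63.8 ± 5.15 CPM and Myl1 at 134.5 ± 5.12 CPM at day 6. Skeletal actin (Acta1) was at 3.01, 3.38, 2.64 and 2.18 CPM in the day 0 libraries and 911, 928, 813 and 879.9 CPM in the day 6 libraries. Even so, nonmuscle actins remained the larger part: at day 6 Acta1 held 16.6 ± 0.389% of the actin level per kilobase, cardiac actin (Actc1) 2.73 ± 0.0814% and beta-actin (Actb) 38.3 ± 0.602%. Of the Z-disc, M-band and giant sarcomere genes, 26 were called higher and 2 lower of 32 tested, with a median log2 fold change of 5.33. The M-band gene Myom2 went from 4.30 ± 1.20 to 164 ± 9.15 CPM, and the actinin of fast fibres, Actn3, was already at 26.03 ± 0.996 CPM at day 0 and reached 221 ± 7.89 CPM. Filamin C (Flnc) and Pdlim5 were called lower (-0.73 and -0.48).

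Promoter sequence is shown for 4 muscle genes that rose steeply, because the elements known to serve muscle transcription lie close to their start. The 250 bases before the start site were read from RefSeq (GRCm38.p6), 5′ to 3′ on the gene's strand. Capitals mark CAGCTG, the E-box bound by MyoD and myogenin, TATAAA, a MEF2 element and the CArG box bound by SRF.
Myh4, chr11:67237562-67237811, plus strand: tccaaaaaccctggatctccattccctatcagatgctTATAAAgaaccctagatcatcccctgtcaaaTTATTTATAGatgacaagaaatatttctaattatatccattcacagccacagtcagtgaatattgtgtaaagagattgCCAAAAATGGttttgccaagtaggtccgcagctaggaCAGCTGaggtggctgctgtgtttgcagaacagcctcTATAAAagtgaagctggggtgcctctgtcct
Myh1, chr11:67199852-67200101, plus strand: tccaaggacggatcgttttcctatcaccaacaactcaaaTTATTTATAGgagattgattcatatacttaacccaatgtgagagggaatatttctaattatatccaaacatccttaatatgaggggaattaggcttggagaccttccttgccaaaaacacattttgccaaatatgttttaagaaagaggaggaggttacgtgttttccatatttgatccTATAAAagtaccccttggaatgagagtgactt
Chrng, chr1:87205561-87205810, plus strand: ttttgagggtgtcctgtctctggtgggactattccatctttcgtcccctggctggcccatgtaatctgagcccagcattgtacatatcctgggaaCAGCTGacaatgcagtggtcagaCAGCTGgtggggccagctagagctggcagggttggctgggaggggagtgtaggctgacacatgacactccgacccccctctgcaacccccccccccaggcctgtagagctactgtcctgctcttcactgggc
Chrna1, chr2:73580339-73580588, minus strand: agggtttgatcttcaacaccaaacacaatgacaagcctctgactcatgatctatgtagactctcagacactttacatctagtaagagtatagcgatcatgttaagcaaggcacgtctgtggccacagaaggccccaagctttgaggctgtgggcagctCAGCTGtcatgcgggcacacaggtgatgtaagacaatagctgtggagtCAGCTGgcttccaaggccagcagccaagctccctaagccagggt
The Myh4 window held all of these elements, with CAGCTG 67 bases and TATAAA 31 bases before the start. Its neighbour in the fast myosin group, Myh1, held a MEF2 element and TATAAA but not CAGCTG or a CArG box, and the receptor genes Chrng and Chrna1 each held CAGCTG at 2 places. Over the 82 genes of the muscle lists called higher by at least 2-fold, 58 had a window in the table. CAGCTG, a palindrome and so the same on both strands, was in 34.7% of their 72 windows against 12.7% of the 14395 windows of all tested genes. The MEF2 element, whose search pattern is the same on both strands, was in 16.7% against 1.79%, the CArG box in 8.33% against 1.24%, and TATAAA, searched on the gene's strand, in 9.72% against 4.13%. A match describes the letters in these windows and is not evidence of binding.

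Many muscle proteins have a general form and a muscle form made by separate genes. Of 42 such pairs, 36 had both genes tested. The muscle form was called higher in 26, lower in 3 and not called in 7. The general form was called higher in 17 and lower in 12, so in 11 pairs both forms rose and in 11 the muscle form rose as the general form fell. The share of the muscle form in the sum of both, per kilobase, had a median of 1.73% at day 0 and 18.1% at day 6. It exceeded 50% in 3 pairs at day 0 and in 5 at day 6, and it stayed under 20% at day 6 in 19 pairs. All day 6 libraries lay above all day 0 libraries for this share in 23 pairs, and below them in 6. Aldoa and Ldha were above 50% on both days, while Slc25a4 went from 50.6% to 42.4% of its pair with Slc25a5. Atp2a2, taken as the general form of its pair, is also a slow fibre gene. The integrin chain Itga7, which binds laminin, went from 32.4 ± 1.09% to 72.2 ± 1.81% of its pair with Itga5. Itga5 is a different integrin alpha chain rather than a general form of Itga7, and this pair is 1 of the 5 above 50% at day 6. The myosin chaperone Unc45b went from 0% to 57.1 ± 2.85% against Unc45a, and the light chain kinase Mylk2 from 10.9 ± 3.96% to 71.0 ± 2.67% against Mylk.

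Among enzymes of energy metabolism, the muscle form stayed the smaller part in several pairs. Muscle creatine kinase (Ckm) rose from 0.188 ± 0.143 to 15.6 ± 2.17 CPM, but the brain form Ckb rose too, from 10.9 ± 1.94 to 68.7 ± 4.16 CPM, and the share of Ckm went only from 1.70 ± 1.40% to 18.4 ± 1.24%. Glycogen phosphorylase of muscle (Pygm) reached 15.1 ± 1.25% of its pair with Pygb. The muscle enolase Eno3 lost share, from 49.9 ± 0.898% to 42.7 ± 0.603%; both enolases rose, with log2 fold changes for Eno1 and Eno3 of 1.41 and 0.99. Muscle phosphofructokinase (Pfkm) was called lower (-0.38), and its share went from 43.2 ± 0.721% to 34.8 ± 1.27%. The general glucose transporter Slc2a1 rose from 156 ± 8.54 to 264 ± 13.9 CPM.

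**Figure D3:**
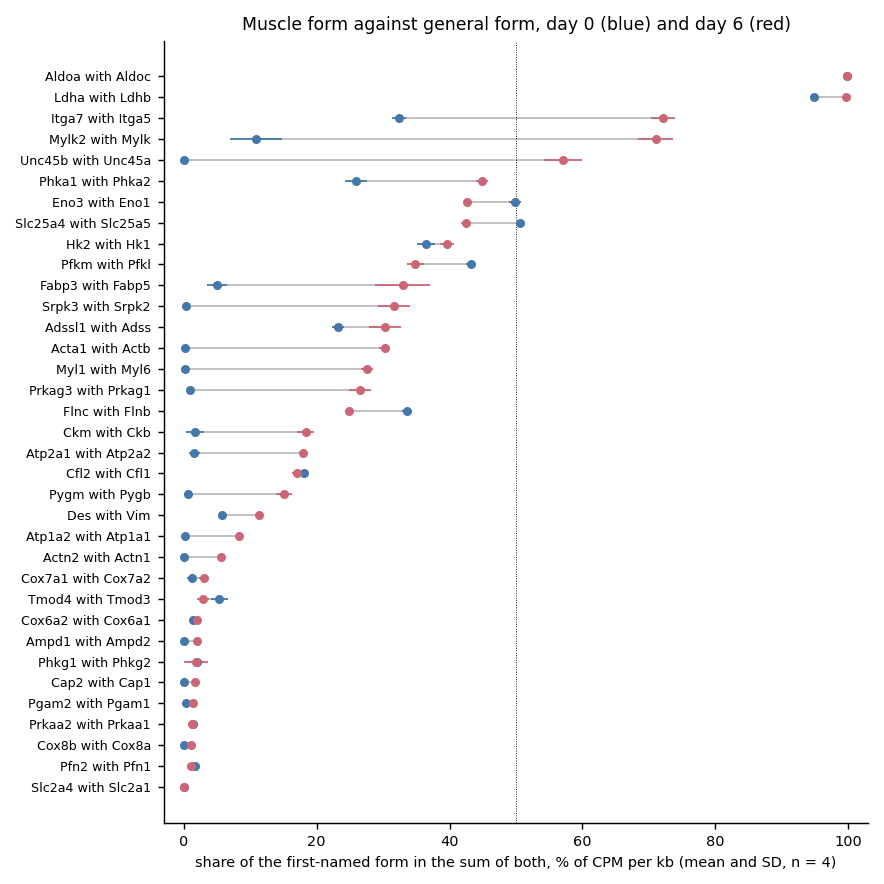
Share of the muscle form (first-named gene) in the summed level of both forms, in percent of CPM per kilobase, for 35 of the 36 pairs with both genes tested; blue is day 0 and red day 6, with mean and SD of 4 libraries. The dotted line marks 50%: Aldoa, Ldha, Itga7, Mylk2 and Unc45b lay above it at day 6.

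Most genes of the neuromuscular junction were called higher. The acetylcholine receptor of muscle has subunits alpha, beta, delta and, before innervation, gamma. Its alpha subunit gene Chrna1 was at 41.3, 42.8, 37.4 and 42.0 CPM in the day 0 libraries and 766, 803, 722 and 778 CPM in the day 6 libraries. The gamma subunit gene Chrng rose by 6.37 ± 0.16 (edgeR, adjusted p = 4.5e-18), and the adult epsilon subunit gene Chrne had too few counts to be tested. Per kilobase, Chrna1 held 68.3 ± 1.00% of the receptor subunit level at day 6 and Chrng 9.09 ± 0.482%. In all, 16 of 19 tested junction genes were called higher and 3 lower, namely Agrn (-0.56) and Erbb2 (-0.51) and Nrg1, whose symbol the table lists more than once; of these, Agrn and Nrg1 encode ligands and Erbb2 a neuregulin receptor subunit. Erbb3, the receptor subunit that binds neuregulin, rose from 1.27 ± 0.363 to 14.0 ± 1.03 CPM.

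Of 30 triad and calcium release genes, 21 were called higher and 6 lower, with a median of 1.497. The voltage sensor Cacna1s, the release channel Ryr1 and the linker Stac3 rose (7.14, 4.65 and 3.62), with Cacna1s, at 7 counts over the day 0 libraries, at 8.33 without day 0 replicate 1. Calsequestrin 2 (Casq2), the slow and cardiac form of the calcium store protein, went from 0.677 ± 0.430 to 187 ± 4.61 CPM and held 85.6 ± 1.13% of both calsequestrins at day 6. The calcium pump gene Atp2a2, expressed widely but also a slow fibre gene, held 82.0 ± 0.511% of the pump level at day 6. The fast muscle pump Atp2a1 held 17.9 ± 0.452%. Counts per gene do not separate the transcripts of Atp2a2, so its share is not that of a nonmuscle pump. The IP3 receptors, calcium channels found in most cells, were called lower: Itpr1 (-0.93), Itpr2 (-1.40) and Itpr3 (-0.54). The junctophilin Jph1, which ties the membranes of the triad together, was not called (0.23). Ion channel and pump genes were divided, with 7 called higher and 5 lower of 15 tested and a median of 0.14. The shares over all tested genes were 33.1% higher and 32.5% lower. Among them, the sodium channel of adult muscle, Scn4a, rose from 0.0512 ± 0.0715 to 2.57 ± 0.833 CPM.

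Fusion genes were called higher in 14 and lower in 6 of 25. The fusogens myomaker (Mymk) and myomixer (Mymx) reached 89.2 ± 7.03 and 23.4 ± 2.58 CPM from a mean under 1 CPM each. M-cadherin (Cdh15) rose from 13.4 ± 1.09 to 191 ± 12.1 CPM and the adhesion molecule Jam2 from 39.1 ± 3.85 to 207 ± 7.77 CPM. The myoblast receptor Boc and the membrane repair protein dysferlin (Dysf) fell, Dysf from 27.9 ± 2.37 to 10.01 ± 0.828 CPM, while the repair protein Trim72 rose from 0.197 ± 0.0911 to 24.0 ± 2.19 CPM. In the dystrophin complex, 14 of 27 genes were called higher and 8 lower. Dystrophin (Dmd) had no count at day 0 and 6.82, 5.18, 6.24 and 6.47 CPM at day 6, at least 296-fold higher. The sarcoglycans Sgca (2.67) and Sgcb (0.43) rose and Sgce fell (-0.46).

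Tubulin and intermediate filament genes were mostly called higher. A list made up mainly of stress fibre genes, with some YAP targets, was mostly called lower. Of 22 tubulin and intermediate filament genes, 17 were called higher and 4 lower, with a median of 0.89. Tubb3, a beta-tubulin best known from neurons, was at 18.998, 17.7, 15.5 and 17.9 CPM in the day 0 libraries and 265, 281, 261 and 264 CPM in the day 6 libraries. The neurofilament genes Nefl and Nefm, which build intermediate filaments in neurons, rose from 17.7 ± 2.97 to 195 ± 12.7 CPM and from 3.14 ± 0.627 to 49.9 ± 5.17 CPM. Nestin (Nes), found in developing muscle and nerve, rose from 258 ± 15.1 to 1014 ± 62.9 CPM. Of the 7 markers of the neural list only Tubb3 and Map2, a microtubule-associated protein, had enough counts to be tested, and the glial and neuronal markers Sox10, Gfap, Syp and Rbfox3 did not. Of 22 stress fibre genes and targets of the coactivator YAP, 17 were called lower and 4 higher, with a median of -0.39. YAP targets taken alone did not move together. Amotl2 (-1.84) and Ajuba (-0.43) of this list were called lower and Axl was not called (0.06). Of targets held on other lists, Ccn2 (1.06) and Ankrd1 (2.65) were called higher and Ccn1 (-0.51) lower. The calponin Cnn1 fell from 29.8 ± 2.25 to 3.04 ± 0.931 CPM and smooth muscle gamma-actin Actg2 from 331 ± 10.5 to 69.0 ± 4.38 CPM. Nonmuscle myosin Myh9, from a separate list of nonmuscle and smooth muscle myosin genes, fell from 1967 ± 189 to 1031 ± 88.5 CPM. That list was divided, with 3 called higher and 4 lower of 8 tested and a median of -0.35.

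**Figure D4:**
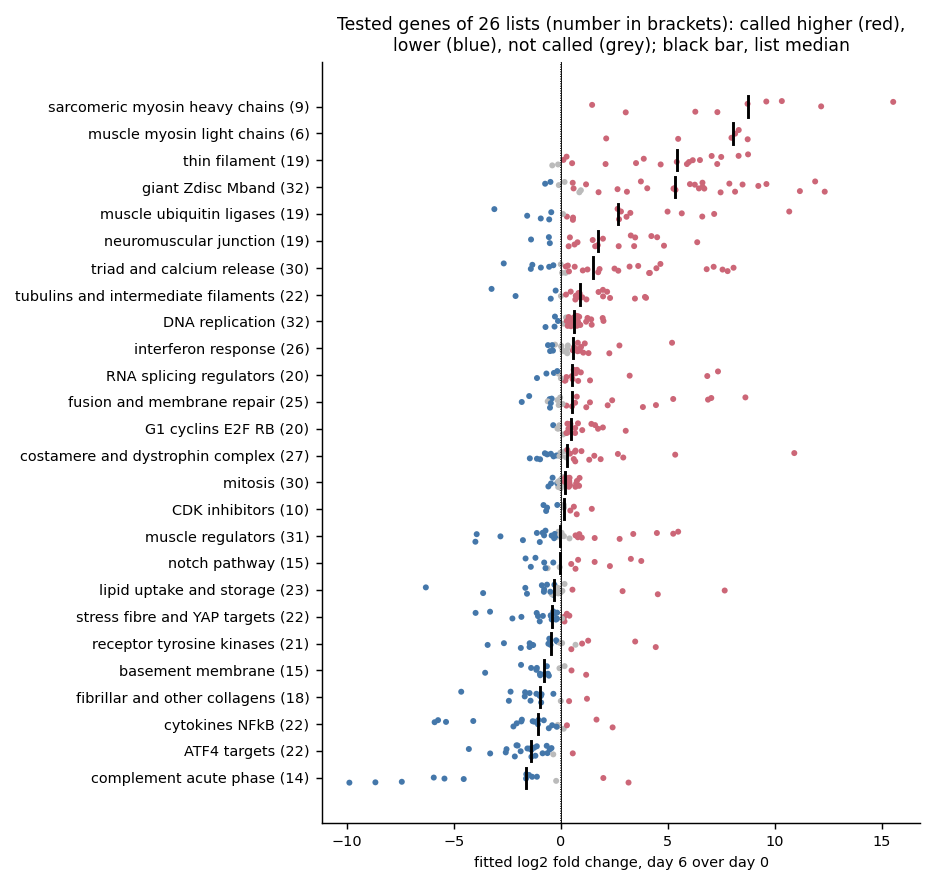
Fitted log2 fold change of day 6 over day 0 for every tested gene of 26 lists, sorted by list median (black bar); points are red for genes called higher, blue for lower and grey for not called, and the dotted line is the median of all tested genes. Myosin, thin filament and Z-disc lists lie at the top and the ATF4, cytokine and complement lists at the bottom.

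Genes of the division cycle were more often called higher than lower at day 6. Entry into S phase depends on cyclins D and E and on E2F factors. Of 20 G1, E2F and RB family genes, 15 were called higher and 1 lower, with a median of 0.45. Cyclin D1 (Ccnd1) was at 86.6, 81.9, 80.7 and 92.5 CPM in the day 0 libraries and 256, 256, 269 and 256 CPM in the day 6 libraries. Cyclin E2 (Ccne2) rose from 11.3 ± 1.69 to 44.3 ± 3.29 CPM and E2f2 from 3.55 ± 0.298 to 29.1 ± 0.835 CPM, and Ccnd2 was the one called lower (-0.35). Among the S phase genes, which were called higher in 26 and lower in 4 of 32, the licensing factor Cdc6 and the ribonucleotide reductase subunit Rrm2 moved most (1.99 and 1.96). The inhibitor p21 (Cdkn1a), which muscle cells raise as they stop dividing, rose as well, from 113 ± 7.24 to 309 ± 11.7 CPM, and p27 (Cdkn1b) fell from 169 ± 2.60 to 96.8 ± 4.00 CPM. Of 30 mitotic genes 17 were called higher and 4 lower with a smaller median of 0.20. When only genes of at least 10 CPM in 4 libraries were tested, 7 mitotic genes and 4 of the G1 list were called lower. Markers of satellite and reserve cells, the undifferentiated cells of such cultures, did not move together, with 9 called higher and 6 lower of 16. Rises included Heyl (3.76), Spry1 (3.11), Cxcr4 (2.42) and the stem cell antigen Ly6a, from 506 ± 102 to 1244 ± 94.3 CPM. Falls included Notch3 (-1.64) and Pdgfra (-1.87), the latter also on the fibroblast list. Pax7 had too few counts to be tested, with 6 over the day 0 libraries and 96 over the day 6 libraries.

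Genes of the IGF pathway, which promotes muscle growth, moved in different directions. The IGF-binding proteins Igfbp2 (2.27), Igfbp3 (3.99) and Igfbp5 (2.15) rose and Igfbp7 fell (-0.90), while the receptors Igf1r, Igf2r and Insr were all called lower (-0.70, -1.80 and -1.03). Igf2 is listed at 0 in all 8 libraries, beside the steep rise of its neighbour H19. How reads on overlapping genes were counted is not given in the sources used here. The growth-associated chromatin protein Hmga2 rose from 24.9 ± 1.83 to 110.0 ± 3.77 CPM. Of 21 receptor tyrosine kinases, 13 were called lower and 5 higher. Falls included Ror2 (-3.42), Epha3 (-2.66), Pdgfra (-1.87) and Egfr (-1.29), and rises included Fgfr4, a receptor of myogenic cells, Erbb3 and Met (4.43, 3.47 and 0.99). Secreted ligands moved in both directions, with 12 called higher and 13 lower of 28, beside 33.1% higher and 32.5% lower over all tested genes. Gremlin 1 (Grem1), a BMP antagonist, was at 70.2, 63.4, 62.0 and 65.3 CPM in the day 0 libraries and 609.8, 597, 679.5 and 637 CPM in the day 6 libraries. Cxcl12 fell from 1105 ± 55.2 to 234 ± 7.45 CPM, and Hgf and Fgf7 fell by 1.46 and 2.02.

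Extracellular matrix genes were mostly lower at day 6. Of 18 collagens and crosslinking enzymes, 15 were called lower and 2 higher, with a median of -0.97. Type I collagen chain Col1a2 was at 4748, 5235, 5693 and 4968 CPM in the day 0 libraries and 987, 938, 946 and 974 CPM in the day 6 libraries. Its partner Col1a1 fell by less (-0.93 against -2.42), and Col3a1 was not called at 9206 ± 555 and 9207 ± 203 CPM. The basement membrane around fibres is built of laminins, type IV collagen, nidogens and perlecan, and 11 of its 15 genes were called lower. Laminin alpha 4 (Lama4) went from 380.4 ± 32.8 to 32.8 ± 3.60 CPM and laminin beta 2 (Lamb2) from 263 ± 25.0 to 72.7 ± 2.90 CPM. Proteoglycan and matricellular genes were divided, with 9 called higher and 14 lower of 24. Decorin (Dcn) rose from 9.91 ± 1.54 to 288 ± 15.5 CPM and Cilp, a matrix protein of cartilage, from 1.11 ± 0.226 to 258 ± 9.44 CPM. Lumican (Lum) was at 9.22 ± 1.21 CPM at day 6, from 2 counts over the 4 day 0 libraries, and the related Ogn and Aspn fell (-1.36 and -2.16). Metalloproteases, which cut matrix proteins, and their inhibitors were divided, with 7 called higher and 8 lower of 16. Mmp9 fell from 8.98 ± 1.42 to 0.0757 ± 0.151 CPM and so did Mmp3 (-5.43), whereas the proteases Mmp10 (2.58), Mmp13 (2.24) and Adam12 (0.75) and the inhibitors Timp1 (0.95), Timp2 (0.63) and Timp3 (2.07) rose. The call of Mmp13 was lost without day 0 replicate 2 (1.94, adjusted p = 0.0512 by edgeR).

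Targets of ATF4 were mostly called lower at day 6. ATF4 is the transcription factor of the response to amino acid shortage and unfolded protein, and its list holds enzymes and transporters of amino acid supply, stress and signalling genes, and Atf4 itself. Of these 22 genes 20 were called lower and 1 higher, with a median of -1.37. Asparagine synthetase (Asns) was at 634, 610.0, 600.4 and 581 CPM in the day 0 libraries and 139, 156, 153 and 151 CPM in the day 6 libraries. The stress pseudokinase Trib3 fell from 138 ± 13.4 to 14.1 ± 1.21 CPM, the cysteine-forming enzyme Cth from 123 ± 9.79 to 6.29 ± 1.18 CPM, and the transporter Slc7a5 from 254 ± 11.7 to 57.4 ± 4.19 CPM. Atf4 mRNA itself fell by less, from 604 ± 39.4 to 447 ± 25.4 CPM, and Atf3 was the gene called higher (0.56). Lipid genes were called lower in 11 and higher in 4 of 23: Fabp4 fell from 7.47 ± 0.716 to 0.0894 ± 0.0419 CPM and Lpl from 118 ± 9.63 to 39.5 ± 3.07 CPM. The lipase inhibitor Angptl4 rose from 4.57 ± 0.825 to 105 ± 4.29 CPM and the fatty acid receptor Cd36 from 0.0530 ± 0.0716 to 11.8 ± 1.38 CPM. The transferrin receptor Tfrc, which brings iron into cells and is sometimes used as a reference gene, was at 30.5, 25.6, 26.6 and 23.8 CPM in the day 0 libraries and 354, 359, 363 and 371 CPM in the day 6 libraries.

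Regulators of mitochondrial biogenesis moved in both directions. Of 18 tested, 9 were called higher and 3 lower, with a median of 0.19. The coactivator Ppargc1a had a mean under 1 CPM on both days, the nuclear receptor Esrrg fell from 2.01 ± 0.546 to 0.121 ± 0.0949 CPM, and the mitochondrial transcription factor Tfam rose from 40.9 ± 3.57 to 61.6 ± 2.05 CPM. The share of counts on the 13 protein genes of the mitochondrial genome was 2.17 to 2.25% in the day 0 libraries and 2.02 to 2.198% in the day 6 libraries, which overlap (two-sided exact permutation p = 0.0857). The oxygen-binding protein myoglobin (Mb) rose from 0.0959 ± 0.0663 to 20.9 ± 2.21 CPM.

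Many of the deepest falls were of inflammatory genes. Of 22 cytokine and NF-kappa B genes, 16 were called lower and 3 higher, with a median of -1.05, and of 14 complement and acute phase genes 11 were called lower and 2 higher, with a median of -1.61. The neutrophil chemokine Cxcl5 was at 948, 809, 830.4 and 827 CPM in the day 0 libraries and 17.6, 23.5, 19.6 and 22.6 CPM in the day 6 libraries. Cxcl1 fell from 274 ± 14.8 to 4.63 ± 1.51 CPM and Ccl9 from 214 ± 11.9 to 4.03 ± 0.349 CPM, and the central complement component C3 went from 151 ± 23.9 to 0.159 ± 0.0433 CPM. The protease inhibitor Slpi, a secreted antimicrobial protein, fell from 61.8 ± 8.67 to 0.489 ± 0.136 CPM. The NF-kappa B subunit genes Relb and Nfkb2 and the inhibitor Nfkbia, which are targets of the pathway themselves, were lower by smaller amounts (-1.82, -1.23 and -1.06). Il33, an alarmin of the nucleus, went the other way, from 43.4 ± 2.57 to 138 ± 2.67 CPM. Beyond these lists, the 15 largest falls included the RNA-binding protein gene Elavl2, from 13.5 ± 1.77 to 0.0121 ± 0.0243 CPM, together with the transcription factor Klf15 (-5.48) and the esterase Ces1g (-6.40).

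The promoter of Cxcl1 is shown because a kappa B element, the site bound by NF-kappa B, lies in it (capitals).
Cxcl1, chr5:90890995-90891244, plus strand: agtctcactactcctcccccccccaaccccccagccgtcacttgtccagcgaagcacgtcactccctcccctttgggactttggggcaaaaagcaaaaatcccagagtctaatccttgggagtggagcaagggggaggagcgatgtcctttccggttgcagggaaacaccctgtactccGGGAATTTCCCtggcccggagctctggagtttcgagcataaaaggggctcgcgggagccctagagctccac
Among cytokine and complement genes called lower by at least 2-fold, 14 of 23 had windows in the RefSeq table (GRCm38.p6), and a kappa B element, with a search pattern that is the same on both strands, was in 38.1% of these 21 windows against 4.39% of all 14395. In the muscle gene windows it was in 5.56%. CAGCTG was in 9.52% of the cytokine and complement windows. These shares rest on few windows and describe letters only.

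Interferon-stimulated genes, which cells raise against viruses, were called higher in 14 and lower in 4 of 26, with a median of 0.59. Ifi27l2a was at 6.44, 3.23, 2.85 and 3.34 CPM in the day 0 libraries and 146, 162, 138 and 143 CPM in the day 6 libraries. The tetherin gene Bst2 rose from 94.7 ± 34.3 to 456 ± 37.996 CPM and the RNA sensor gene Oas1a from 7.67 ± 3.66 to 51.5 ± 4.38 CPM. These values touch a library that stood apart. Day 0 replicate 1 was the highest of the day 0 libraries for all 26 genes, at 1.26 to 2.79 times the mean of the other 3, and its summed level was 2450 CPM against 1228 to 1403 CPM in the others. The day 6 sums were 2781 to 2954 CPM. For 13 of the 26 genes this library was above all 4 day 6 libraries. Without it, 19 of the 26 were called higher at day 6 and 1 lower. Irf7, for example, was at 75.6, 43.0, 39.7 and 34.5 CPM in the day 0 libraries and 54.5, 70.9, 56.5 and 61.2 CPM in the day 6 libraries, and was not called with all libraries (0.33). What set this library apart was not tested. Its counts also differed most from those of the other day 0 libraries over all genes, with a chi-square per degree of freedom of 21.1 to 23.7, against 6.83 to 11.4 among the other 3.

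**Figure D5:**
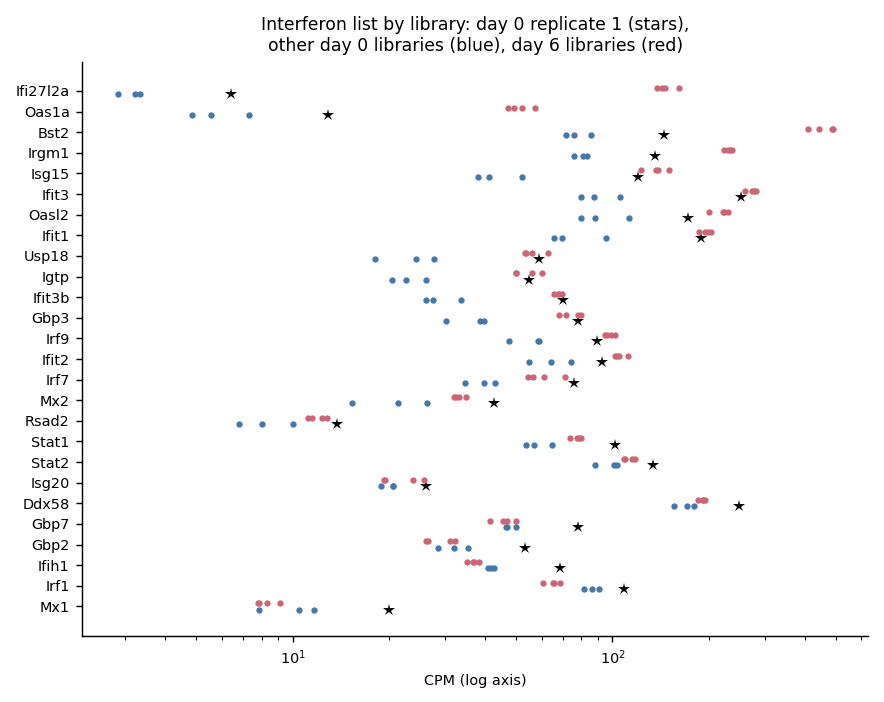
CPM (log axis) of the 26 interferon-stimulated genes in each library; black stars are day 0 replicate 1, blue points the other day 0 libraries and red points the day 6 libraries. The star is the rightmost day 0 symbol for all 26 genes and lies right of every red point for 13 of them.

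RNA-binding regulators of splicing were called higher in 14 and lower in 4 of 20. The muscle splicing factor Rbm24 rose from 0.0561 ± 0.0495 to 9.54 ± 0.928 CPM, the kinase Srpk3 from 0.0791 ± 0.0807 to 9.17 ± 0.843 CPM and Rbfox1 from 0.181 ± 0.169 to 1.74 ± 0.253 CPM, while Rbm20, which acts on titin, fell by 0.67. The muscleblind gene Mbnl1 rose by 0.60. Of 19 ubiquitin ligase and kelch genes, 13 were called higher and 5 lower. Klhl41, a kelch protein of the thin filament, rose from 0.794 ± 0.301 to 77.6 ± 4.04 CPM, and MuRF1 (Trim63), an atrophy ligase, from 0.0265 ± 0.0531 to 4.43 ± 0.523 CPM, while atrogin-1 (Fbxo32), another atrophy ligase, fell by 0.54. Chaperones of the sarcomere were called higher in 14 and lower in 1 of 18, among them alpha-B crystallin (Cryab), from 72.4 ± 6.29 to 307 ± 28.1 CPM, and Hspb1, from 187 ± 18.9 to 625 ± 89.1 CPM. Akap6 and Plpp7, proteins of the muscle nuclear envelope, rose by 1.77 and 2.36.

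Genes often used to normalise such comparisons were themselves called in most cases, 12 higher and 5 lower of 19, with a median of 0.28. Ppia, Ywhaz and Hprt rose (1.09, 0.73 and 0.56), Rplp0 and Sdha fell (-0.37 and -0.26), and Actb rose by 0.16, a call that was lost when only genes of at least 10 CPM in 4 libraries were tested (0.05, adjusted p = 0.342 by edgeR). Among protein-coding genes 5243 were called higher and 4431 lower of 13269. Among long noncoding RNAs 190 were called higher and 696 lower of 1843. A single row can lose reads to a near copy or an overlapping gene: Gapdh is listed at 28.4 ± 9.87 CPM at day 0 (43.2 CPM in replicate 2 and 23.1 to 23.7 in the others), a low level for a gene that cells express strongly, and its rise (0.97) is uncertain for that reason.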

How the data were processed

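RNA of 12 C2C12 libraries (4 each at day 0, 1 and 6) was analysed from a deposited table of raw read counts per gene. Per the submitters' processing notes the authors' tools were featureCounts 2.0.6, StringTie 2.2.3, HISAT2 2.2.1 and fastp, with no roles given, and the build mm10. The strand setting of the counting is not given in the sources used here, so overlapping and antisense genes cannot be told apart. Among deposited counts of 1 to 10, 67.6% were even, against 49.6% of counts of 201 to 1000, so that a floor of 3 counts may stand for fewer fragments. Bounds against that floor cover counting error only, while SDs, SEs and the p-values of the fit rest on the spread between libraries.

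Genes passing filterByExpr were fitted with edgeR 4.0.16 (R 4.3.3; TMM, glmQLFit, 1 coefficient per day, no block), contrasting day 6 with day 0. DESeq2 1.42.0, other scalings and filters, a replicate block and leaving out each library were alternatives. CPM divide by the library total of tested genes scaled by its TMM factor, and levels per kilobase divide further by the listed gene length. The shares of counts in the most abundant and mitochondrial genes and the number of genes at 1 CPM use plain library totals instead. For a symbol listed more than once, the row with most counts stood for the gene in a list. The fit was tested on simulated data. Libraries with the same replicate number did not deviate together (correlations of -0.27, -0.20, 0.24 and 0.07), so they were not treated as pairs. The members and gene lists were chosen with earlier results of these data known. The text names the 15 largest rises and falls (at least 10 CPM in the higher group, no overlap), the 10 largest gains and losses in CPM, and members of the lists. Promoter windows on chromosome 18 were not used here, and the values of 3 genes are not reported here.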

Additional observations from a re-analysis of the deposited data

Results flagged for a closer look

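In 26 of 460 groups of 4 libraries examined (5.65%), the highest or lowest value lay apart from the other 3 by more than Dixon's 95% limit. Chance alone flags about 1 group in 20. The interferon genes of the report stand out among them: their summed level in day 0 replicate 1 was 2450 CPM, against 1228 to 1403 CPM in the other day 0 libraries. The rRNA row took 0.457% of counts in day 0 replicate 3, against 0.237 to 0.274% in the others. Day 0 replicate 1 had Cxcl5 at 948 CPM against 809 to 830.4 CPM, Ifi27l2a at 6.44 CPM against 2.85 to 3.35 CPM, and Mylk at 27.1 CPM against 39.2 to 41.0 CPM in the other libraries of that day. The same library also had Ryr1 at 0.379 CPM against 1.08 to 1.20 CPM, and Timp3 at 77.4 CPM against 97.5 to 101 CPM (the other 3 libraries of that day). Day 0 replicate 2 had Cav3 at 0.121 CPM against 0 CPM, Gapdh at 43.2 CPM against 23.1 to 23.7 CPM, and Lum at 0.0603 CPM against 0 CPM in each of the other libraries of that day. The same library also had Myf5 at 18.6 CPM against 21.0 to 21.4 CPM (the other 3 libraries of that day). Day 0 replicate 3 had Pfkm at 122 CPM against 109 to 110.1 CPM, and Pygm at 0.120 CPM against 0.505 to 0.584 CPM in the other libraries of that day. Day 0 replicate 4 had Lmod2 at 0.159 CPM against 0 CPM, Myh8 at 0.106 CPM against 0 CPM, and Trim63 at 0.106 CPM against 0 CPM in each of the other libraries of that day. Day 6 replicate 1 had Elavl2 at 0.0485 CPM against 0 CPM in each of the other libraries of that day. Day 6 replicate 2 had Col5a2 at 1405 CPM against 1497 to 1514 CPM, Ldha at 2755 CPM against 2483 to 2502 CPM, and Mmp9 at 0.303 CPM against 0 CPM in each of the other libraries of that day. The same library also had Slc7a5 at 63.7 CPM against 54.9 to 55.6 CPM (the other 3 libraries of that day). Day 6 replicate 3 had Atp2a1 at 31.8 CPM against 30.1 to 30.4 CPM, Ccnd1 at 269 CPM against 256 CPM, and Nfkb2 at 31.6 CPM against 39.9 to 40.8 CPM in the other libraries of that day. The same library also had Ppia at 1537 CPM against 1712 to 1730 CPM, and Sgcb at 177 CPM against 173 to 174 CPM (the other 3 libraries of that day). The values at 0 rest on few counts.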

How the results depend on the processing

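Testing only genes of at least 10 CPM in 4 libraries gave 8000 calls. By construction it tests fewer genes, and it moved the counts over all genes most: 3740 genes called higher, 1544 called and at least 2-fold (592 higher and 952 lower) and 15 muscle forms called higher. It also moved list counts by over 1.5 times. Mitotic genes called lower went from 4 to 7, G1 genes called lower from 1 to 4 and chaperones called lower from 1 to 2. Genes called higher went from 13 to 7 among ubiquitin ligases, 14 to 7 among splicing regulators, 9 to 4 among reserve cell markers, 7 to 4 among metalloproteases and inhibitors, 7 to 2 among ion channels, 5 to 3 among receptor tyrosine kinases, 4 to 2 among stress fibre genes and 2 to 0 among complement genes and among cardiac markers. Genes called lower went from 11 to 7 among complement genes, 5 to 3 among inhibitors of myogenesis and among ubiquitin ligases, 5 to 1 among ion channels, 4 to 2 among tubulin and filament genes, 3 to 1 among adipocyte markers and 1 to 0 among cardiac markers. It also shifted the median log2 fold change of the genes it tests by -0.11. All 15 alternatives kept the number of called genes within 1.5 times of 11190. With the replicate block 11037 genes were called (5614 higher and 5423 lower), and leaving out each library gave 10773 to 11170. DESeq2 called 11718 genes, of which 10970 were among those called by edgeR in the same direction. Of 224 named genes that were followed, 5 changed their call or direction under any alternative: Actb, Irf7, Mef2d, Mmp13 and Col3a1. Irf7 was called higher without day 0 replicate 1 (0.63) and with no filter on low counts (0.30). Col3a1, not called, turned negative with DESeq2 size factors in edgeR (-0.015), library totals alone (-0.046), no filter (-0.028), the 10 CPM filter (-0.11, adjusted p = 0.0418 by edgeR), DESeq2 (-0.014), the 8 libraries alone (-0.011) and in 5 of the 8 fits without a single library, which ranged from -0.030 to 0.0341.

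Leaving out a library changed some list counts of 4 or fewer by over 1.5 times: interferon genes called lower were 1 without day 0 replicate 1 and 2 without day 6 replicate 1 or 4, replication genes called lower were 2 without day 6 replicate 2, G1 genes called lower were 2 without day 6 replicate 3 or 4, and sarcomere chaperones called lower were 2 without day 0 replicate 1 or day 6 replicate 4. Chaperones called lower were also 2 with DESeq2 size factors in edgeR, library totals alone, no filter and the replicate block, G1 genes called lower 2 with library totals alone, and interferon genes called lower 1 with DESeq2. For genes with few counts on one of the days, leaving out a library also moved the fitted fold by over 1.5 times, and the value depends on the prior count where no count is left: the log2 fold change ranged from -11.44 to -6.58 for Mmp9, 6.74 to 10.40 for Trim63, 7.23 to 9.03 for Cd36, 5.10 to 6.84 for Scn4a, 6.39 to 7.55 for Srpk3, 2.90 to 4.12 for Rbfox1 and -8.99 to -7.87 for E230016K23Rik. With 1 library left out, the smallest two-sided exact permutation p for library make-up is 0.0571, so the share of the 20 most abundant genes (differences of -1.24 to -1.11 percentage points) and the number of genes at 1 CPM (-290.5 to -246.2) cannot pass 0.05. The cause of the other changes was not tested. The groups' replicate numbers are not shown to be pairs.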

Other observations

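Some genes outside the lists moved as well. Lincmd1, the host of muscle microRNAs, which was chosen after its values were seen, rose from 2.16 ± 0.286 to 41.1 ± 4.22 CPM. Among the 15 largest falls, the uncharacterised transcript E230016K23Rik went from 10.8 ± 1.62 to 0.0303 ± 0.0364 CPM, the adhesion protein gene Adam23 from 60.3 ± 3.65 to 1.05 ± 0.345 CPM and the serpin gene Serpina3h from 15.1 ± 1.85 to 0.324 ± 0.187 CPM. Serpina3g and Serpina3h belong to a cluster of near-identical genes, so their counts can be split between copies.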
